A study of Mus musculus with 9 samples.

Results

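The genes described here encode the proteasome and the machinery that loads its peptides onto MHC class I molecules. They are all measured genes whose symbol begins with Psm, a letter from a to g and a number, together with Tap1, Tap2, Tapbp, Tapbpl, B2m, Erap1, Calr, Nlrc5 and H2-K1. The rule gave 58 genes of 22180 tested, of which 49 carry a Psm symbol. Psma4 was on the array only on 2 probe sets that name several genes, and it was not analysed here. Psmc3ip and Psme3ip1 match by name only, since they encode proteins that bind a proteasome protein or its relative and are no subunits, which leaves 47 genes of the proteasome, its activators and its assembly. Expression was measured in male C57BL/6J mice aged 8 weeks, in cells taken from the plantar hindpaw 24 h after an incision. Every sample was sorted as positive for the myeloid integrin CD11b and negative for the neutrophil protein Ly6G, and the groups differ in surface Ly6C, which is high on monocytes that recently left the blood. The 3 gates, Ly6C high, Ly6C medium and Ly6C low, had 3 arrays each and no uninjured group is used here. The labels name no animal for an array, so a p-value here sets a difference against the spread of these samples, and that spread may be purely technical.

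The proteasome is the protease that destroys proteins tagged with ubiquitin. Its barrel, the 20S core, is built of rings of alpha and beta subunits, and the cutting is done by Psmb5, Psmb6 and Psmb7. Interferon gamma and other inflammatory signals induce Psmb8, Psmb9 and Psmb10, which take the places of Psmb5, Psmb6 and Psmb7 in newly built barrels and form the immunoproteasome, and cells of blood origin carry many such barrels without added interferon. The peptides that come out pass through the transporter made of Tap1 and Tap2 into the endoplasmic reticulum, where Erap1 trims them and Tapbp and Calr help them onto a class I heavy chain such as H2-K1 paired with B2m. CD8 T cells read the result on the cell surface, and Nlrc5 is the transcriptional activator of many of these genes.

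Several of these genes lie side by side. In the RefSeq annotation of GRCm38.p6 the genes Psmb9, Tap1, Psmb8 and Tap2 follow one another on chromosome 17, and Psmb5 and Psmb11 are neighbours on chromosome 14. The start sites of Tap1 and Psmb9 are 226 bases apart, so their promoter windows share 275 bases. The promoters of 4 genes that the comparisons below turn on are shown from RefSeq, 5′ to 3′ on the gene's own strand, from 250 bases before the start site to 50 after it. Capitals mark matches, on either strand, to any of 5 motifs: the interferon response element (GAAA repeated after a spacer of 2 letters), the STAT site, spelled TTCNNNGAA, the CCAAT box, the GC box, spelled GGGCGG, and the antioxidant response element, spelled TGACNNNGC. In these spellings N is any letter.
Tap1, chr17:34187306-34187605 (+ strand): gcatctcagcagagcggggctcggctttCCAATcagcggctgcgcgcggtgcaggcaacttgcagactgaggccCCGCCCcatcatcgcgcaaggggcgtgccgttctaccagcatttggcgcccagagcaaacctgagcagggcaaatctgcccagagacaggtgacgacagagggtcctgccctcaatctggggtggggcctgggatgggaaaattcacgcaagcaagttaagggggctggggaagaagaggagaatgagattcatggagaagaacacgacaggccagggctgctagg
Psmb8, chr17:34197945-34198244 (+ strand): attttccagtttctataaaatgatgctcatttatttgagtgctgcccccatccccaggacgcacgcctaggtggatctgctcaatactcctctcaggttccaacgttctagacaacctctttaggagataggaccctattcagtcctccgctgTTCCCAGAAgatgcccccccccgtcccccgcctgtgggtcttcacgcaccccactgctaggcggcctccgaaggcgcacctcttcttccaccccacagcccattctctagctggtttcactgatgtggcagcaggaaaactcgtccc
Psmb5, chr14:54617946-54618245 (- strand): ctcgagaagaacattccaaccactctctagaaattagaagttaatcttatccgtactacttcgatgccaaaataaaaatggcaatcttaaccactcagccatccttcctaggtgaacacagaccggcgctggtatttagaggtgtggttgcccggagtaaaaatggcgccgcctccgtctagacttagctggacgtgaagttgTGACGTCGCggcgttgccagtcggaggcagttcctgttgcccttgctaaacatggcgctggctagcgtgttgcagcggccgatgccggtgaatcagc
H2-K1, chr17:34000298-34000597 (- strand): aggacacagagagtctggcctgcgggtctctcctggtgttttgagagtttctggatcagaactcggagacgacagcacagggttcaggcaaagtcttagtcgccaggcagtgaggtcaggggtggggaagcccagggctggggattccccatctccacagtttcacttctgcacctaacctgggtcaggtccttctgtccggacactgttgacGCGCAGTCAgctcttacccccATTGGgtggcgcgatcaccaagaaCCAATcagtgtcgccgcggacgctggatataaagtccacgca
The Psmb8 window held a STAT site at base -97 from the start site, the Psmb5 window an antioxidant response element at base -47, and the Tap1 window a CCAAT box at -222 and a GC box at -176. The H2-K1 window shown held CCAAT boxes at -16 and 9 and an antioxidant response element at -37. Windows were given for 47 of the 58 genes and for 27025 mouse genes. The interferon response element was in 7 of these 47 windows (14.9%), those of B2m, Erap1, Psmb3, Psmd4, Psmd9, Psme1 and Psmg4, against 4.0% of all genes. It was in 0 of the 3 windows of Psmb8, Psmb9 and Psmb10, which says only that these exact letters are not in these windows. The STAT site was in 6.4% of the windows against 9.6% of all genes, the CCAAT box in 44.7% against 41.1%, the GC box in 57.4% against 38.2%, and the antioxidant response element in 17.0% against 14.0%. By group the shares went both ways, with CCAAT boxes in 5 of 6 windows of loading and class I genes but 4 of 14 of 19S subunits. GC boxes were in 10 of 14 windows of 19S subunits and 4 of 10 of constitutive core subunits. The STAT site was in 0 of 6 windows of loading and class I genes. These groups are small and their shares were not tested. In every window the search finds only these exact letters, so other spellings of a site are missed. A match is a description and not a bound site, the motifs can overlap one another, and no binding was measured.

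The values are log2 intensities, and a difference of 1 is a 2-fold change. Levels of different genes come from different probes and are not compared with each other, so only the differences of a gene between gates are read. Array medians lay between 3.93 and 4.10. The sorted cells carried the transcripts of their gate, with Itgam (CD11b) at 10.43 to 11.14 and Ptprc (CD45) at 10.10 to 10.77 on the 9 arrays. Ly6c2 followed the gates, from 12.08 or more in Ly6C high through at least 11.20 in medium to at most 9.40 in low, and Ly6g was dim, at 2.74 to 4.61. Markers of other cells moved with the gates. The mean log2 value of 11 fibroblast markers was 8.36, 7.78 and 7.19 on the Ly6C high arrays, 5.57 to 5.79 in medium and 5.04 to 5.22 in low, and 10 of the 11 passed as lower in low against high (limma). The mean of 9 tissue macrophage markers ran the other way, with 6.74 to 7.17 on the high arrays, 7.61 to 8.39 on the medium and 9.48 to 9.76 on the low arrays, and that of 10 dendritic cell markers was 4.91 to 5.28, 5.38 to 5.54 and 7.07 to 7.17 in the same order. The mean of 10 neutrophil markers was 4.94 to 5.52 in Ly6C high, 5.52 to 6.14 across medium and 5.26, 5.51 and 6.57 on the low arrays, highest on Ly6C low replicate 3, with 1 marker higher and 2 lower in the test of low against high. The mean of 10 T and NK cell markers stood at 3.45 to 3.64 on every array and that of 4 B cell markers at 3.74 to 4.32. Single T and NK cell markers differed by -0.19 to 0.87 between low and high. Single B cell markers differed by 0.05 to 0.66 between medium and high, and 0 passed in these comparisons (limma). The part of these other cells in the differences below was not tested, and in bulk samples fewer cells of a type and less RNA per cell cannot be told apart.

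Proteasome and class I loading transcripts did not pass the test between any of the 3 gates, which does not show that the differences were small. No gene of the 58 passed the threshold of an adjusted p of 0.05 between Ly6C low and Ly6C high, a comparison in which 5.67% of all genes tested did (limma, Benjamini-Hochberg adjustment over all genes). The count was also 0 of 58 between medium and high, where 0.239% of all genes passed, and 0 of 58 between low and medium, where 1.93% did. At an unadjusted limma p under 0.05 there were 7 genes higher and 5 lower in low than in high, against 10.4% and 7.46% of all genes. Between medium and high these counts were 4 higher and 1 lower, against 3.72% and 3.81%, and between low and medium 4 and 4, against 8.54% and 5.53%. The 58 genes are brighter than most, since 45 of them reached a log2 value of 6 on 3 or more arrays, as did 28.4% of all genes. Among all genes that bright, 14.7% passed the threshold between low and high.

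The intervals show how large a difference the 9 arrays still allow. Between low and high the 95% interval lay within a 2-fold change in both directions for 52 of the 58 genes (89.7%), and for 86.4% of all genes. It lay within a 1.5-fold change for 32 of them (55.2%), against 61.7% of all genes. Between medium and high 54 intervals lay within 2-fold (93.1%, beside 93.1% of all genes), and between low and medium 54 did (93.1%, beside 89.2%). The arrays of low and high did not overlap for 20 of the 58 genes, 14 higher and 6 lower in low. That is 34.5%, beside 20.1% of all genes (11.4% higher and 8.76% lower). Of the 45 bright genes among the 58, 14 were separate (31.1%), 9 higher and 5 lower, beside 39% of all bright genes (20.7% higher and 18.3% lower). Between low and medium 12 genes were separate and higher in low and 3 lower, against 9.25% and 7.58% of all genes. Between medium and high 1 was higher and 1 lower, against 5.77% and 4.93%. The median difference over the 58 genes was 0.09 between low and high, 0.04 between medium and high and 0.02 between low and medium, beside 0.01, 0.03 and -0.02 over all genes. Single arrays moved these small medians, to 0.03 between low and high without Ly6C high replicate 2, 0.04 without Ly6C low replicate 3 and 0.14 without Ly6C low replicate 1, and to -0.03 between medium and high without Ly6C medium replicate 2. Between low and medium the median was 0.08 without Ly6C medium replicate 2. After centring the median between medium and high was -0.01. Any 2 of these comparisons have a gate in common, so their values are not independent of each other.

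**Figure D1:**
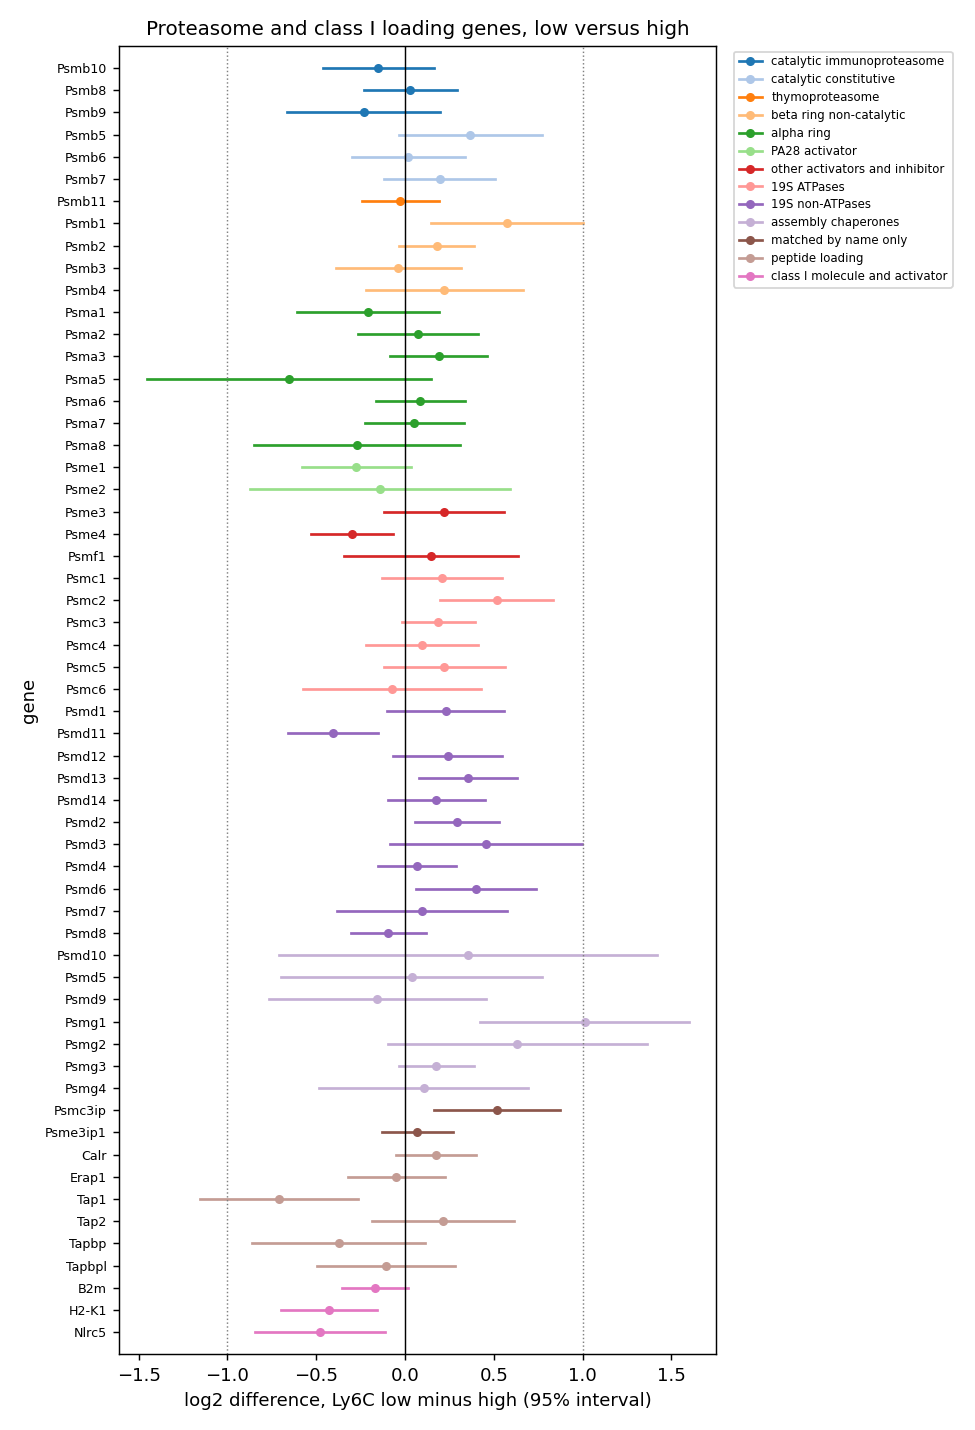
Difference in log2 intensity between Ly6C low and Ly6C high (x axis) for each of the 58 genes (y axis, grouped by role), with the 95% interval of the limma fit as a bar. The estimates run from -0.71 for Tap1 to 1.01 for Psmg1, and 0 of the 58 passed an adjusted p of 0.05.

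Some genes are listed at exactly the same value on several arrays, and for 10 of the 58 genes and 28.1% of all genes this holds for 3 or more arrays. Among the catalytic subunits these are Psmb10, at 8.83 on 3 arrays, and Psmb6, at 9.36 on 3.

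The immunoproteasome subunits were read first. Psmb8, the inducible subunit that replaces Psmb5, stood at 8.69, 8.48 and 8.42 on the Ly6C high arrays, at 8.56, 8.55 and 8.26 in medium and at 8.56, 8.52 and 8.59 in low. The gates overlapped, and low minus high was 0.03 with an interval from -0.23 to 0.29 (limma adjusted p = 0.954). That interval allows no change of 1.5-fold in either direction. Psmb9, which replaces Psmb6, read 8.94, 8.34 and 8.35 in high, 8.35, 8.70 and 8.14 in medium and 8.40, 8.25 and 8.28 in low. A single Ly6C high array lay above all others, and the difference between low and high was -0.23, from -0.67 to 0.20 (limma adjusted p = 0.637). Psmb10, which replaces Psmb7, read 9.23, 9.0 and 8.77 in high, 8.77, 8.83 and 8.49 in medium and 8.83, 8.83 and 8.88 in low. The same Ly6C high array, replicate 1, was highest for all 3 of these genes and the Ly6C medium replicate 3 was lowest for all 3. For Psmb10 low minus high was -0.15, from -0.46 to 0.16 (limma adjusted p = 0.685).

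The constitutive catalytic subunits did not pass either. Psmb5, the chymotrypsin-like subunit, read 10.05, 9.41 and 9.95 in high, 9.87, 10.26 and 9.87 in medium and 10.09, 10.18 and 10.23 in low. All low arrays lay above all high arrays, with a difference of 0.37 and an interval from -0.04 to 0.77 that reaches below 0 (limma adjusted p = 0.337). Psmb6, the caspase-like subunit, read 9.41, 9.07 and 9.36 in high, 9.36, 9.57 and 9.42 in medium and 9.06, 9.36 and 9.48 in low, and low and high differed by 0.02 (limma adjusted p = 0.976). Psmb7, the trypsin-like subunit, read 9.76 to 10.19 in high, 10.20, 10.15 and 10.14 in medium and 10.20, 9.97 and 10.36 in low, a difference of 0.20 between low and high (limma adjusted p = 0.560). The low values of Psmb5 and Psmb7 in Ly6C high both came from replicate 2, which was the lowest of the 9 arrays for these 2 genes. Psmb11, the catalytic subunit of the thymus, read 3.03 to 3.30 on all 9 arrays, below the median of every array.

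**Figure D2:**
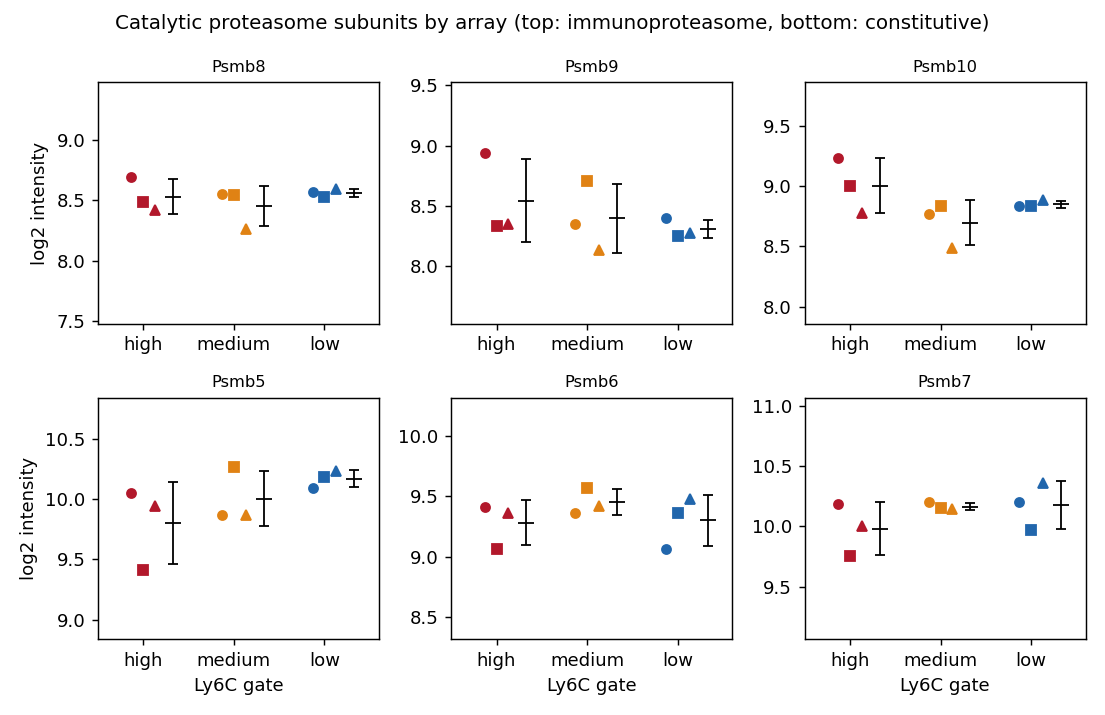
Log2 intensity (y axis) of the 3 immunoproteasome and the 3 constitutive catalytic subunits on each array, by gate (x axis). Points are arrays, with the shape giving the replicate number, and bars are the mean with the SD (n = 3); the gates overlap for each subunit except low and high for Psmb5, at 10.09 to 10.23 against 9.41 to 10.05.

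The comparison of the induced with the constitutive set was made within each array, as the mean of Psmb8, Psmb9 and Psmb10 minus the mean of Psmb5, Psmb6 and Psmb7. It is a description with no test, and only its change between gates is read. The value was -0.93, -0.81 and -1.25 on the Ly6C high arrays, -1.25, -1.30 and -1.51 on the medium arrays and -1.19, -1.30 and -1.44 on the low arrays. The gate means were -0.996 ± 0.23 (SD, n = 3), -1.36 ± 0.14 and -1.31 ± 0.13, so that the balance stood 0.31 lower in low than in high and 0.36 lower in medium than in high, and low and medium differed by 0.05. The Ly6C high replicates 1 and 2 lay above all arrays of the other gates and replicate 3 lay among them. Each of the replaced pairs had the same sign between low and high, at -0.34 for Psmb8 minus Psmb5, -0.25 for Psmb9 minus Psmb6 and -0.35 for Psmb10 minus Psmb7. Between medium and high the same pairs stood at -0.28, -0.32 and -0.49. The pairs come from the same arrays and are not independent. The mean of the induced set was 0.12 lower in low than in high and that of the constitutive set 0.19 higher. Leaving out 1 array at a time moved the difference between low and high from -0.44 to -0.22, and the value of -0.22 is that without Ly6C high replicate 2.

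**Figure D3:**
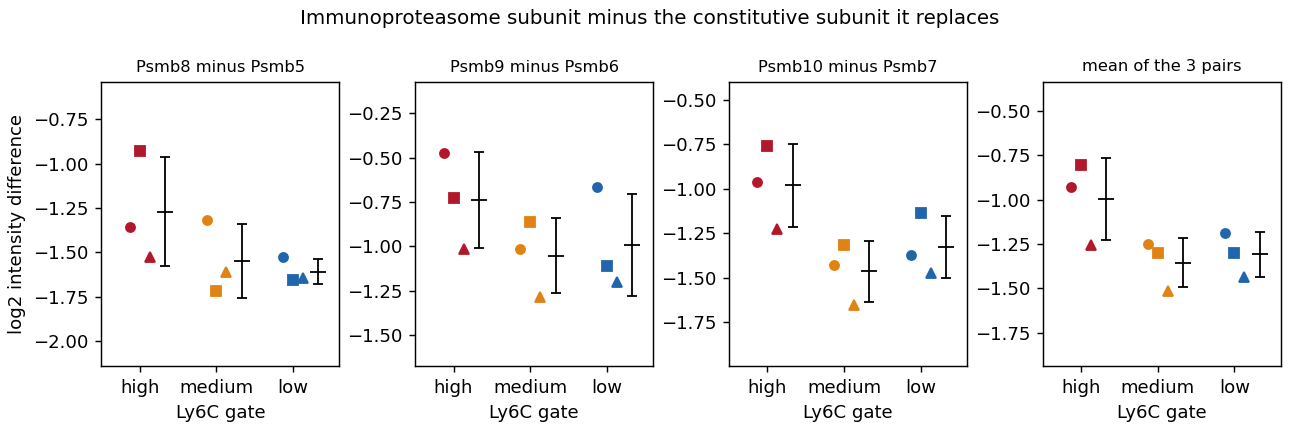
Difference in log2 intensity within each array (y axis) for the mean of the immunoproteasome subunits minus the mean of the constitutive subunits and for the 3 replaced pairs, by gate (x axis). Points are arrays and bars the mean with the SD (n = 3); the means of the set difference are -0.996, -1.36 and -1.31 from Ly6C high to low, and Ly6C high replicate 3, at -1.25, lies within the other gates.

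The 20S core holds 14 measured constitutive subunits, counted with Psmb5, Psmb6 and Psmb7 and with Psma8, the alpha subunit of the testis. Of these, 10 had a difference above 0 between low and high and 4 below, beside 11688 above 0 of all 22180 genes. The median of the 14 was 0.08, which was 0.18 after repeated quantile normalization and 0.16 without Ly6C high replicate 1. Psmb1, a beta subunit without cutting activity, read 9.24, 8.76 and 8.80 in high, 9.48, 9.82 and 9.19 in medium and 9.59, 9.63 and 9.31 in low. Its low arrays all lay above its high arrays, with gate means 0.57 apart and an interval from 0.14 to 1.00. The mean of medium stood above that of high by 0.56, but neither difference passed after adjustment (limma adjusted p = 0.134 and 0.504). Psmb2, another such subunit, was tightly measured at 9.70 to 9.78 in high and 9.86 to 9.99 in low, a difference of 0.18 (limma adjusted p = 0.392). Psma3, listed at the same 9.03 on all 3 medium arrays, had the largest positive difference of the alpha ring, at 0.19 (limma adjusted p = 0.503). Psma5 had the largest negative one, at -0.66, but it was dim, at 2.87 to 4.64 on the 9 arrays, and another probe set of the gene gave 0.06. Psma8 and Psmb3, also below 0 at -0.27 and -0.04, were dim too. Psma8 read 3.01 to 4.16, with identical values on 4 arrays, and Psmb3 read 4.81 to 5.60. Psma1, the remaining gene below 0, was bright, at 7.63 to 8.32 with overlapping gates. Its difference was -0.21 between low and high (limma adjusted p = 0.650) and -0.18 between medium and high (limma adjusted p = 0.850). Ly6C high replicate 2 was the lowest of the 9 arrays for 8 of the 14 core subunits. Without it, the median between low and high was -0.02 and 5 of 14 differences were above 0.

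The 19S cap, which recognises ubiquitin and unfolds the substrate, held 17 measured subunits. Of these 14 stood higher in low than in high and 3 lower, with a median of 0.21, beside 11688 higher of all 22180 genes. Every one of the 17 intervals lay within a 2-fold change. The arrays did not overlap for 6 that were higher and 1 that was lower. That is 41.2% of the 17 in either direction, a share near the 39% of all bright genes (20.7% higher and 18.3% lower). The split by direction was not tested. Psmc2, one of the ATPases that thread the substrate into the core, read 9.97, 10.12 and 9.88 in high, 10.10, 10.54 and 10.20 in medium and 10.65, 10.35 and 10.53 in low. The low arrays all lay above the high ones, with gate means 0.52 apart (95% interval 0.20 to 0.83, limma adjusted p = 0.0725). A dimmer probe set of the gene gave 0.19. Psmd13, Psmd2 and Psmd6, subunits of the base and the lid, stood higher in low by 0.36, 0.29 and 0.40, with separate arrays and limma adjusted p values of 0.147, 0.167 and 0.192. Psmd14, which cuts ubiquitin off the substrate, read 7.56, 7.67 and 7.63 in high, 7.76, 8.14 and 7.96 in medium and 7.68, 7.76 and 7.94 in low, so that both other gates lay above high (limma adjusted p = 0.527 for medium and 0.544 for low). Psmd3, with 0.46, was spread widely, at 7.22 to 8.09 in high and 7.66 to 8.36 in low.

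Psmd11 had the largest negative difference of the cap, beside small ones of Psmd8 and Psmc6. This scaffold subunit of the lid read 9.47, 9.36 and 9.51 in high, 9.59, 9.31 and 9.65 in medium and 9.05, 8.98 and 9.08 in low. Every low array lay below every array of the other gates. The mean of low was 0.41 below that of high and 0.48 below that of medium, with limma adjusted p values of 0.0750 and 0.0733. The low arrays spanned only 0.05 in SD. The largest negative difference of the ATPases was that of Psmc6, at -0.07, and its arrays overlapped. The Ly6C low replicate 3 array was the highest of the 9 for 8 of the 17, and without it the median of the cap between low and high was 0.11 with 13 of 17 above 0.

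**Figure D4:**
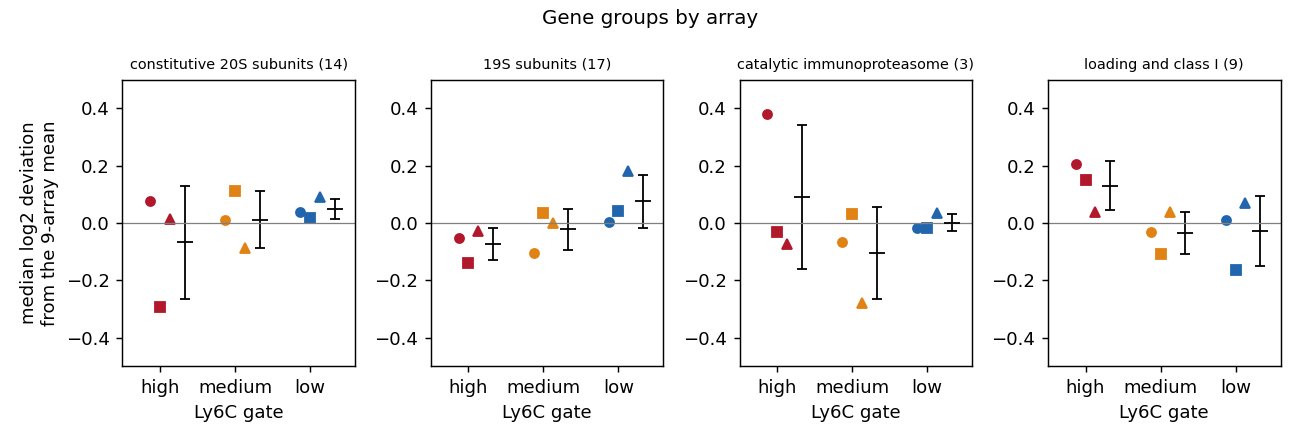
Median over the genes of each functional group of the log2 intensity minus the gene's mean over the 9 arrays (y axis), by array and gate (x axis). Ly6C high replicate 2 lies lowest for the constitutive core, at -0.29, while the 19S cap runs from -0.14 on that array to 0.18 on Ly6C low replicate 3 and the loading and class I genes from 0.21 on Ly6C high replicate 1 to -0.16 on Ly6C low replicate 2.

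Activators that open the barrel were mixed. Psme1, a subunit of the PA28 activator that interferon gamma induces, read 9.36, 9.03 and 9.12 in high, 9.13, 9.21 and 8.82 in medium and 8.96, 8.97 and 8.76 in low, and every low array lay below every high array, with gate means 0.27 apart (limma adjusted p = 0.353). Its partner Psme2 scattered from 5.69 to 6.98 over the 9 arrays, with a difference of -0.14 and an interval from -0.87 to 0.59, an interval that includes a 1.5-fold change in both directions (limma adjusted p = 0.903). Psme4, which encodes PA200, an activator of the nucleus, read 7.92, 7.92 and 8.06 in high, 8.07, 7.95 and 8.04 in medium and 7.77, 7.72 and 7.51 in low. Every low array lay below all other arrays, and the mean of low was 0.30 below that of high and 0.35 below that of medium (limma adjusted p = 0.150 and 0.140). Psme3, the nuclear relative of PA28, was listed at the same 5.84 on all Ly6C high arrays and on 2 medium arrays, and at 5.88 to 6.36 in low, a difference of 0.22 (limma adjusted p = 0.540). Psmf1, an inhibitor of the core, read 5.21 to 6.20 with overlapping gates (limma adjusted p = 0.832 between low and high).

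The assembly chaperones were the least precisely measured group. Only 4 of their 7 intervals between low and high lay within 2-fold. Psmg1, which with Psmg2 builds the alpha ring, read 4.67, 4.73 and 5.30 in high, 5.11, 5.79 and 5.26 in medium and 6.28, 5.97 and 5.47 in low. This was the largest difference of the 58 genes, at 1.01 or 2.02-fold (95% interval 0.42 to 1.60), with separate arrays and a limma adjusted p of 0.0594. Psmg2 read 4.72, 4.63 and 4.61 in high, 5.65, 6.11 and 4.60 in medium and 5.15, 5.57 and 5.14 in low, and low lay above high by 0.63 (limma adjusted p = 0.366). A second probe set of Psmg2 gave 0.85. Both genes were under a log2 value of 6 on nearly all arrays. Psmd9, a chaperone of the cap, had the only negative difference of the group, at -0.16, and Psmd10, also called gankyrin, had the widest interval, from -0.71 to 1.42. Psmc3ip, a meiosis gene whose protein is no subunit, read 4.58 to 4.98 in high and 5.20 to 5.65 in low (limma adjusted p = 0.104).

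Loading and class I genes stood lower in Ly6C low and medium than in high more often than higher. Between low and high 4 of the 9 intervals lay within a 1.5-fold change and 8 within a 2-fold change. Of all 22180 genes, 10488 were below 0 between low and high, 9567 between medium and high and 11951 between low and medium. Of the 9 loading and class I genes, 7 were below 0 between low and high with a median of -0.17. Between medium and high 8 were below 0 with a median of -0.22, and between low and medium 4 with a median of 0.01. Single arrays set these medians in part. Between medium and high the median was -0.07 without Ly6C medium replicate 2, -0.13 without Ly6C high replicate 1 and -0.15 without Ly6C high replicate 2, and between low and high it was -0.26 without Ly6C high replicate 2. Between low and medium it ran from -0.15 without Ly6C medium replicate 2 to 0.12 without Ly6C medium replicate 3. Tap1, a chain of the peptide transporter, read 8.57, 8.55 and 8.05 in high, 8.05, 7.77 and 8.05 in medium and 8.05, 7.56 and 7.44 in low. The value 8.05 is listed identically on 4 arrays, and high and low meet there. The difference was -0.71, a 1.63-fold lower level in low, with an interval from -1.15 to -0.27 and a limma adjusted p of 0.0767. Tap2, its partner, did not follow, at 5.66, 5.84 and 5.59 in high, 5.66, 5.15 and 5.61 in medium and 5.79, 5.72 and 6.22 in low, with low above high by 0.21 (limma adjusted p = 0.645) and above medium by 0.44 (limma adjusted p = 0.304). The difference between Tap1 and Tap2 was not tested, and Tap2 was dim.

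Tapbp, or tapasin, which holds the empty class I molecule at the transporter, read 9.49, 9.67 and 9.18 in high, 9.34, 8.58 and 9.27 in medium and 9.01, 8.93 and 9.28 in low. The gates overlapped, and low stood at -0.37 from high (limma adjusted p = 0.443), with -0.28 on another probe set. Its relative Tapbpl read 6.22 to 6.89 with overlapping gates and a difference of -0.11 (limma adjusted p = 0.845). Erap1, the peptidase that trims peptides to length, was nearly flat at 6.89 to 7.29, and its interval between low and high ran from -0.32 to 0.22. It was listed at the same 7.06 on 3 arrays, Ly6C high replicates 1 and 2 and Ly6C low replicate 1. Calr, calreticulin, a chaperone of the endoplasmic reticulum, had gate means of 11.01 ± 0.11 (SD, n = 3), 10.95 ± 0.05 and 11.19 ± 0.10 from high to low, and every low array lay above every medium array, with gate means 0.24 apart (limma adjusted p = 0.314).

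The chains of the class I molecule did not pass the test between gates. B2m, the light chain, read 12.87, 12.89 and 12.82 in high, 12.88, 12.93 and 12.85 in medium and 12.69, 12.66 and 12.72 in low. Every low array lay below all other arrays. The mean of low was 0.17 below that of high (95% interval -0.36 to 0.02, limma adjusted p = 0.339) and 0.20 below that of medium (limma adjusted p = 0.324). H2-K1, a classical heavy chain, read 10.61, 10.59 and 10.43 in high, 10.52, 10.32 and 10.42 in medium and 9.99, 10.03 and 10.32 in low. Low lay below high by 0.43, with an interval from -0.70 to -0.16 and a limma adjusted p of 0.0772. Class I heavy chains are near-identical in sequence, so probes may read more than 1 of them and their values are uncertain. Nlrc5, the activator of class I genes, read 5.60, 5.75 and 5.84 in high, 5.27, 4.85 and 5.53 in medium and 5.24, 5.30 and 5.21 in low. Both other gates lay below high, low by 0.48 (limma adjusted p = 0.143) and medium by 0.51 (limma adjusted p = 0.462), and the gene was dim throughout.

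**Figure D5:**
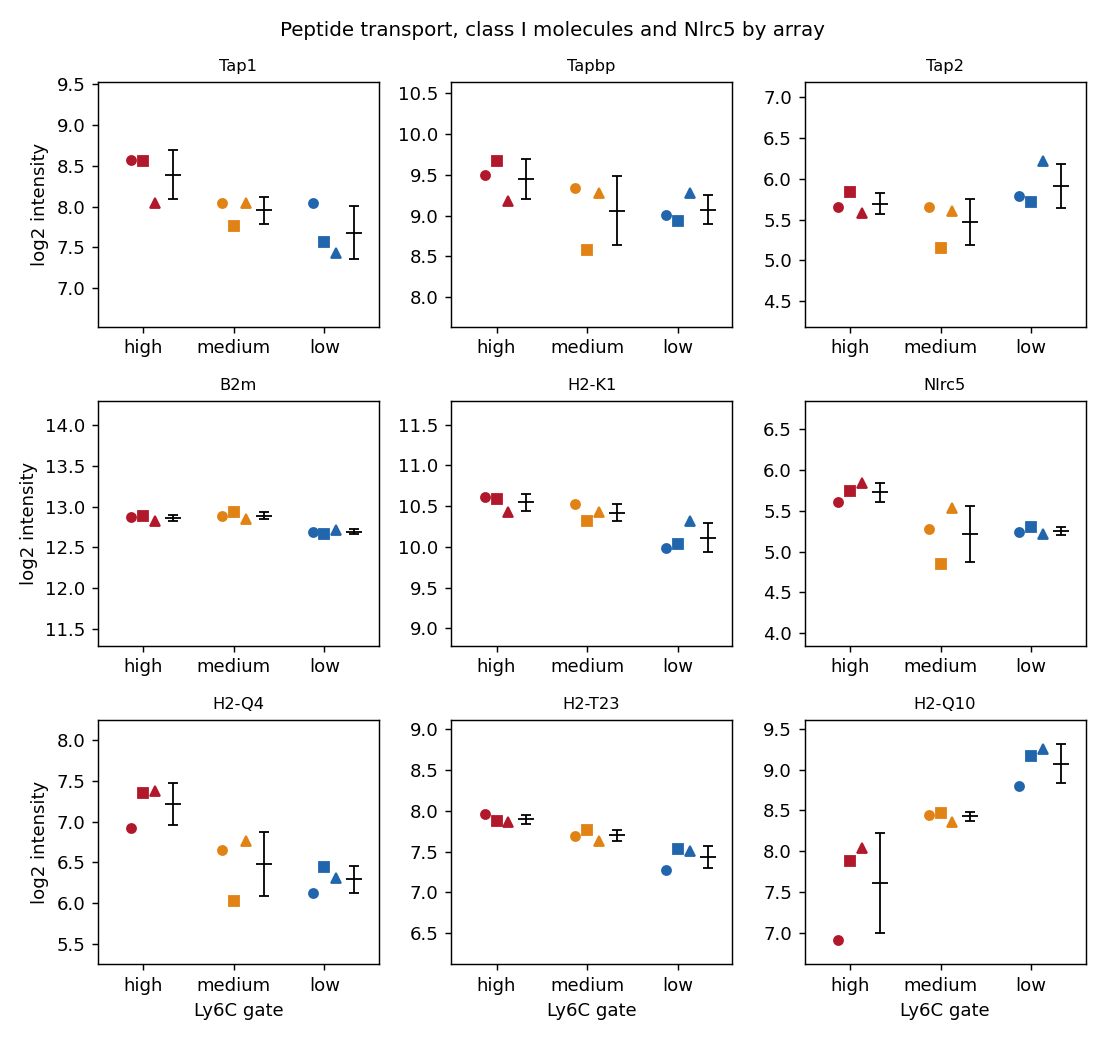
Log2 intensity (y axis) on each array of 6 of the 58 genes (Tap1, Tapbp, Tap2, B2m, H2-K1 and Nlrc5) and of 3 further class I heavy chains, by gate (x axis). Points are arrays, with the shape giving the replicate number, and bars the mean with the SD (n = 3); B2m, H2-K1 and Nlrc5 in Ly6C low lie below every Ly6C high array, and H2-Q10 runs the opposite way to H2-Q4.

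Other genes of the same pathways, taken from lists, did pass the threshold in places between low and high, where 3.35% of all genes were higher and 2.32% lower at that threshold. Of 17 further class I heavy chains 10 were measured, and 2 were lower and 2 higher in low. H2-Q4 read 6.92 to 7.37 in high and 6.12 to 6.45 in low, lower by 0.92 (limma adjusted p = 0.0347), and H2-T23, the Qa-1 chain, 7.86 to 7.96 and 7.28 to 7.53, lower by 0.46 (limma adjusted p = 0.0313). H2-Q10 read 6.91 to 8.03 in high and 8.80 to 9.26 in low, higher by 1.46 (limma adjusted p = 0.0148), and the dim H2-M2 was higher by 0.71 (limma adjusted p = 0.0119). H2-Q10 is best known as a secreted chain of the liver and may share probes with other chains. H2-Q4 passed in only 3 of 9 fits that leave out an array and H2-T23 in 4, with the highest adjusted p at 0.124 and 0.0992, both without Ly6C low replicate 1. H2-Q10 and H2-M2 each passed in 8 of 9, H2-M2 with an adjusted p of 0.0506 without Ly6C low replicate 1, and H2-Q10 with 0.0586 without Ly6C low replicate 2. The mean of all probe sets of H2-Q10 gave a smaller difference of 0.77 that did not pass (limma adjusted p = 0.0545).

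Of 15 measured genes of peptide supply and loading, Thop1, a peptidase of the cytosol that destroys peptides, was higher in low by 0.66 (limma adjusted p = 0.00931) and passed in every fit that leaves out an array. Npepps, another cytosolic peptidase, was lower by 0.48 (limma adjusted p = 0.0246), and by 0.48 against medium (limma adjusted p = 0.0471), but passed between low and high in only 4 of 9 such fits, with 0.0836 without Ly6C low replicate 1. Against medium it passed in 1 of 9, with 0.158 without Ly6C medium replicate 3, and not after centring (limma adjusted p = 0.0663) or with a trended prior (0.0777). Canx and Pdia3, partners of Calr in folding class I, did not pass (limma adjusted p = 0.238 and 0.661). Of 15 other proteasome factors 0 passed, with 3 higher at an unadjusted limma p under 0.05. Among them Pomp, which assembles the core, stood at -0.06 and Nfe2l1, the activator of proteasome genes, at 0.06.

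Of 21 measured regulators of interferon and class I responses, 4 were lower in low than in high and 0 higher, beside 2.32% of all genes lower and 14.7% of all bright genes called in either direction. Irf7, a factor of the type I interferon response, read 10.28, 10.25 and 9.79 in high, 9.78, 9.74 and 9.74 in medium and 8.07, 8.66 and 8.95 in low. It was lower in low by 1.54 against high (limma adjusted p = 0.00476) and by 1.19 against medium (limma adjusted p = 0.0316, and 0.110 without Ly6C medium replicate 3). Stat2, which carries type I interferon signals, was lower by 1.20 (limma adjusted p = 0.00389), and Irf7 and Stat2 passed between low and high in all 9 fits that leave out an array. Rfxap, a part of the complex that binds class I and class II promoters, and Ifnar2, a chain of the type I interferon receptor, were lower by 1.03 and 0.41 (limma adjusted p = 0.0470 and 0.0438), and each passed in 1 of 9. Without Ly6C low replicate 1 their adjusted p was 0.154 and 0.139. Irf1, which drives the immunoproteasome genes after interferon gamma, differed by 0.03 (limma adjusted p = 0.968). Of 14 genes that interferon gamma induces, Igtp was lower by 0.82 (limma adjusted p = 0.0200), in 6 of 9 such fits with 0.0774 without Ly6C low replicate 2, and the other 13 did not pass. Between medium and high 0 genes of these lists passed.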

How the data were processed

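Expression in the 9 sorted samples was measured on Affymetrix arrays after RNA amplification, per the labels' protocols. The deposited values are log2 intensities per probe set, made by the authors with RMA per the submitters' processing notes, and they were used as deposited. The RMA version and the genome build are not given in the sources used here. Of 41345 probe sets, 23521 name 1 gene, 1814 name several and 16010 are not in the probe table, and the first were used. Each gene was read on its brightest probe set on average over the 9 arrays, which left 22180 genes. The 3 gates were compared pairwise in 1 fit of all 9 arrays with limma 3.58.1 in R 4.3.3 (lmFit and eBayes, two-sided, 6 residual degrees of freedom, Benjamini-Hochberg over the 22180 genes, threshold 0.05, 95% intervals), tested on simulated data. The simulated differences were 2-fold or larger, so the recovery of smaller ones was not tested. Precision is limited by the number of arrays. The genes, the lists and the rule for naming were chosen with earlier results of these data known. The rule names all catalytic subunits, activators, loading and class I genes, Psmb11, Psma8 and Psmc3ip, the largest difference of each sign in each other group, and up to 6 listed companions past the threshold. Further genes named for separate arrays, direction, unadjusted p, wide intervals or as background were chosen after their values were seen. Alternatives were repeated quantile normalization, centring, the mean of all probe sets, a filter for dim genes (a log2 value of 6 reached on 3 or more arrays), a trended and robust prior, the replicate number as a block, only the gates compared, and leaving out each array.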

Additional observations from a re-analysis of the deposited data

How the results depend on the processing

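Across the alternatives, 0 to 2 of the 58 genes passed the threshold between Ly6C low and high. Centring the arrays called 1 (H2-K1, lower) and the dim filter 2 of 45 (Psmc2 higher, Tap1 lower). Leaving out an array called 0 to 2: Tap1 without Ly6C high replicate 3 or low replicate 1, Psmc2 and Psmd11 without medium replicate 2, and H2-K1 and Psmg1 without low replicate 3. Between low and medium the range was 0 to 1 (Psmd11 without medium replicate 2), and between medium and high 0 passed under every alternative run. With the replicate block, 1 gene passed between low and high (Tap1, lower), and all genes called were 1564, 61 and 629 for low against high, medium against high and low against medium. Under the block H2-T23 and Ifnar2 did not pass between low and high (limma adjusted p = 0.0534 and 0.0759), nor Npepps between low and medium (0.0641). The labels leave unknown whether the numbers pair the samples. Of 9 same-number correlations of deviations 4 were over 0.1 (range -0.017 to 0.309, and -0.183 to 0.151 for other numbers), including all 3 among the arrays numbered 3, and the fit without the block was kept. With only the gates compared, all genes called were 644, 1 and 211 in place of 1258, 53 and 427. Leaving out an array gave 596 to 1243, 2 to 72 and 119 to 522. The difference of the immunoproteasome and constitutive sets kept its sign under every alternative run for low against high (leaving out an array, -0.44 to -0.22) and medium against high (-0.49 to -0.26), and not for low against medium (-0.03 to 0.11). After centring, 2 of 3 constitutive and 0 of 3 immunoproteasome catalytic subunits stood above 0 between low and high. The cause of these shifts was not tested. For probes near background, such as those of Psma5, Psma8 and Psmb11, little change can be seen.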
